A study of Homo sapiens with 12 samples.

Results

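The MYC and MAX network is a set of transcription factors that pair through a basic helix-loop-helix leucine zipper. The 9 genes described here are MYC, MYCN, MAX, MXD1, MXD3, MXD4, MXI1, MNT and MLX, and their measurements are every probe set (short probes read together for 1 transcript) that the platform annotation assigns to one of them. There were 32 such probe sets of 54675 on the array. Of these, 29 carried the symbol of 1 member alone and 17 of those were bright enough to test, which left 7 of the 9 genes with a tested probe set of their own. The other 12 were too dim, and 3 listed MXD4 together with MIR4800.

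MAX is the common partner of the network. MYC binds DNA as a dimer with MAX at the E-box CACGTG and recruits coactivators, while the MXD proteins, MXI1 and MNT compete for MAX and recruit SIN3 and histone deacetylase corepressors at the same sites. MLX is a MAX-like partner that pairs with the glucose-sensing factors MLXIP and MLXIPL and with some MXD proteins. In growing cell lines MYC is known for driving ribosome, nucleotide and glycolytic genes, and MXD1 is known for rising as cells leave the cycle.

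RNA came from HEK cells, a human embryonic kidney line, in 2 stable derivatives that switch on a TRPM7 transgene when given tetracycline. TRPM7 is a membrane channel for divalent cations fused to a kinase. The groups were the WT line (wild-type TRPM7) given 1 ug of tetracycline for 72 hours, with no volume stated in the labels, the WT line left untreated, the mutant line given the same tetracycline, and the mutant line left untreated. The mutant channel lacks its kinase domain and served the study as a control for the inducer, and all 4 groups grew in blasticidin at 5 ug/mL. Each group had 3 arrays. The labels say neither whether a line is 1 clone nor whether replicate arrays stand for separate cultures, so p-values cover no more than the spread among these arrays, which may be technical.

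Values are MAS5 signals on a log2 scale, which had been scaled so that all arrays share 1 trimmed mean. Changes are differences of group means with the standard error (SE) of a limma fit of all 12 arrays, and a call is a Benjamini-Hochberg adjusted p under 0.05 over all 29553 tested probe sets. The number of arrays limits the precision. In bulk RNA a fall in fewer cells and less RNA per cell cannot be told apart.

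The targeted gene did not check the tetracycline labels. The brightest TRPM7 probe set changed by -0.85 ± 0.30 (SE) with tetracycline in the WT line (adjusted p = 0.0643, limma) and by -0.20 in the mutant line (adjusted p = 1.00, limma), and groups are used as labelled. The WT line was the noisier one. Its actin 3′ minus 5′ signal, a sign of RNA degradation, ran from 0.632 to 1.36 on its 6 arrays against 0.226 to 0.288 on the 6 mutant arrays, and the median SD per probe set was 0.326 and 0.299 in WT tetracycline and WT untreated arrays against 0.190 and 0.174 in mutant tetracycline and mutant untreated arrays. The limma fit shares the spread of a probe set among all groups, so the quieter mutant arrays enter the SEs of the WT response. Those SEs and p-values can be too small for the WT line. In the same way the SEs and p-values of the mutant response can be too large. WT tetracycline replicate 1 had the lowest limma array weight, 0.267. Of the kidney and neuronal markers of HEK cells, 7 of 8 and 4 of 5 were bright enough to test. Of the blood and of the fibroblast and endothelial markers, 2 of 5 and 2 of 6 were.

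MXD4, MNT and MLX carry CACGTG in their own RefSeq promoters (GRCh38.p14, 250 bases before to 50 bases after the start site). The motif is its own reverse complement. It occurred in 7.26% of 35116 promoters of all genes, and in 3 of 11 promoters matched for 8 members. Their windows are shown because these factors act at the same motif that lies in front of their own genes, with the E-box in capitals, 5′ to 3′ on the strand of the gene.

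MXD4, chr4:2262315-2262359, minus strand, E-box starting 238 bases upstream: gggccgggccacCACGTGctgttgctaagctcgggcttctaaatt

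MNT, chr17:2401221-2401280, minus strand, E-box starting 193 bases upstream: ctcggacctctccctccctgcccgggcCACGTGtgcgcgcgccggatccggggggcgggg

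MLX, chr17:42567023-42567082, plus strand, E-box starting 50 bases upstream: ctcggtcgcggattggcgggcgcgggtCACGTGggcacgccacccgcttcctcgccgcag

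A match is a run of letters and not a measured binding site. The looser E-box CANNTG, which includes CACGTG, occurred in 68.7% of all promoters and in 7 of the 11 member promoters.

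MYC fell with tetracycline in the WT line, its partner MAX fell on 3 of 5 probe sets, and the antagonist MXD1 rose on its brightest probe set. In all, 9 of the 17 tested member probe sets passed, against 16.9% of all tested probe sets. The members were chosen with earlier results of these data known, so the count is a description. Of the 9, 2 rose (7.83% of all) and 7 fell (9.11% of all), and they belonged to 4 genes, MYC, MAX, MXD1 and MLX. One of the 2 that rose, MXD1 206877_at, was under the brightness threshold in WT untreated arrays and passed the filter through its other groups, while the other called sets were above the threshold in both WT groups. The median change of the 17 was -0.33, against 0.02 over all tested probe sets. With the 6 WT arrays fitted alone 1 of 17 passed, MYC, against 4.14% of all probe sets, and with replicates 1 and 2 of every group 0 passed, against 1.83%. The count was 3 without WT untreated replicate 3 or WT tetracycline replicate 2, and 5 without WT untreated replicate 1 or WT tetracycline replicate 3.

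**Figure D1:**
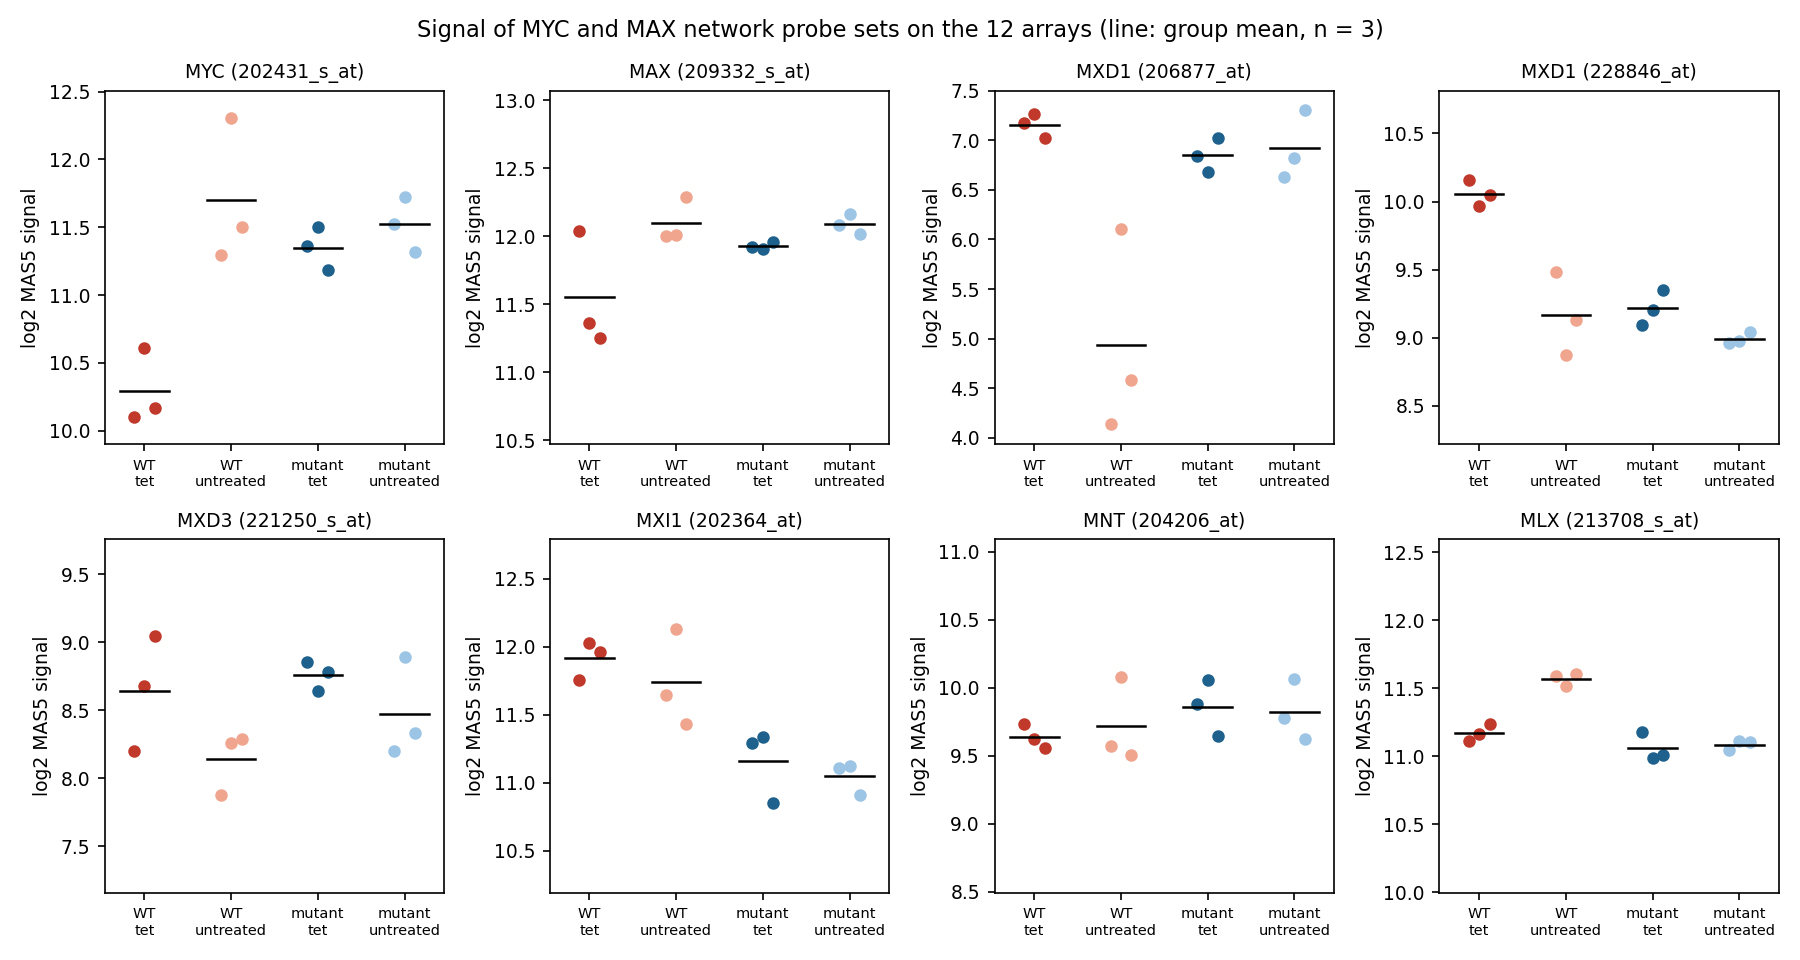
Each panel plots 1 probe set, with log2 MAS5 signal on the vertical axis and the 4 groups along the horizontal axis. Points are arrays and lines are group means (n = 3 each). The 3 WT tetracycline arrays of MYC sit at 10.10 to 10.61, under all other arrays, and the 3 WT tetracycline arrays of MXD1 228846_at sit at 9.97 to 10.16, above all others.

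MYC was measured by 1 probe set, 202431_s_at. Its log2 signal was 10.10, 10.61 and 10.17 on the WT tetracycline arrays, against 11.29, 12.31 and 11.50 on the WT untreated arrays. In the mutant line it was 11.36, 11.50 and 11.19 with tetracycline, against 11.53, 11.72 and 11.32 untreated. The WT tetracycline arrays were the 3 lowest of the 12 and did not overlap any other group, while the mutant groups overlapped each other. As linear signals the WT arrays read 1098, 1561 and 1152 with tetracycline and 2508, 5070 and 2894 untreated. The WT change was -1.41 ± 0.22 (SE, n = 3 each), which is 2.65-fold lower with tetracycline (adjusted p = 0.00112, limma), and 3 of 3 arrays were lower. With replicates 1 and 2 of every group alone the change was -1.45 and missed the threshold (adjusted p = 0.0509, limma). In the mutant line the change was -0.17 ± 0.22 (adjusted p = 1.00, limma).

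MYCN, the MYC paralog of neural and embryonic tissue, had 10 probe sets, and none was bright enough to test. Its brightest, 209757_s_at, read 5.93, 6.07 and 4.35 in WT tetracycline arrays and 4.34, 6.52 and 5.02 in WT untreated arrays, which overlap. The threshold was 6.39 in the highest group mean. That probe set lay just below it, at 6.34, and the dimmest member probe set above it was MAX 214108_at, at 6.84.

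MAX had 5 tested probe sets. The brightest, 209332_s_at, read 12.04, 11.37 and 11.26 in WT tetracycline arrays, against 12.001, 12.01 and 12.29 in WT untreated arrays. WT tetracycline replicate 1 lay within the untreated range and the other two below it. The change was -0.55 ± 0.17 (adjusted p = 0.0397, limma), and this call was lost in 15 of 21 alternative settings, among them the WT arrays alone. The second, 209331_s_at, separated the groups, with 9.83, 9.40 and 9.38 in WT tetracycline arrays against 9.97, 10.26 and 10.77 in WT untreated arrays. Its change was -0.80 ± 0.19 (adjusted p = 0.0118, limma) and the call was lost in 4 settings, the WT arrays alone, replicates 1 and 2 alone, without WT untreated replicate 3 and without WT tetracycline replicate 2, with adjusted p = 0.0509 to 0.225 (limma).

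The third called MAX probe set, 210734_x_at, read 9.13, 7.98 and 8.11 in WT tetracycline arrays and 8.93, 9.17 and 10.12 in WT untreated arrays. The groups overlapped, the change was -0.997 ± 0.31 (adjusted p = 0.0376, limma), and the call was lost in 12 of 21 settings. The suffix x marks a set with probes that can match other transcripts. The remaining MAX sets, 208403_x_at and 214108_at, changed by -0.33 and -1.04 and missed the threshold (adjusted p = 0.372 and 0.167, limma). The set 214108_at passed the brightness filter through WT untreated arrays alone, with a mean of 6.84. Its mean was 5.80 in WT tetracycline arrays, and 5.82 and 6.09 in mutant tetracycline and mutant untreated arrays. Its WT change rests on dim signals and is not read as support. All 5 MAX estimates were negative in both lines, that of 214108_at among them. The mutant ones ran from -0.28 to -0.06 with adjusted p = 1.00 (limma). On the brightest set, 209332_s_at, the mutant groups did not overlap, unlike the WT groups. It read 11.93, 11.91 and 11.96 in mutant tetracycline arrays, against 12.08, 12.17 and 12.01 in mutant untreated arrays, a change of -0.16.

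MXD1, which pairs with MAX and represses E-box genes, had 3 tested probe sets. The brightest, 228846_at, read 10.16, 9.97 and 10.05 in WT tetracycline arrays, against 9.48, 8.87 and 9.13 in WT untreated arrays. It read 9.10, 9.21 and 9.35 in mutant tetracycline arrays, against 8.96, 8.98 and 9.04 in mutant untreated arrays. With tetracycline all 3 arrays lay above the untreated ones in each line, by a wider gap in the WT line. The WT change was 0.90 ± 0.17 (1.86-fold, adjusted p = 0.0034, limma) and the mutant change 0.22 ± 0.17 (adjusted p = 1.00, limma). The WT call was lost with the WT arrays alone (adjusted p = 0.0506, limma) and with replicates 1 and 2 alone (adjusted p = 0.0912, limma).

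The dimmer MXD1 set 206877_at moved further, on values partly under the filter. It read 7.17, 7.26 and 7.02 in WT tetracycline arrays, against 4.14, 6.10 and 4.59 in WT untreated arrays. It read 6.84, 6.68 and 7.03 in mutant tetracycline arrays, against 6.63, 6.83 and 7.30 in mutant untreated arrays. The WT untreated arrays were the 3 lowest of the 12, and their mean of 4.94 ± 1.03 (SD, n = 3) was under the brightness threshold, so this set passed the filter through its other groups. The fitted WT change was 2.21 ± 0.46 (adjusted p = 0.00514, limma), and its size rests on these dim signals and is not read as support for the brightest set. The third set, 226275_at, changed by -0.20 ± 0.24 (adjusted p = 0.619, limma), so the probe sets of this gene disagree.

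The other antagonists missed the threshold in the WT line. MXD3, an MXD protein of dividing cells, changed by 0.50 ± 0.24 (adjusted p = 0.178, limma). MXI1 changed by 0.18 (adjusted p = 0.536, limma) and MNT, the broadly expressed antagonist, by -0.08 (adjusted p = 0.801, limma). A second MNT probe set was too dim to test. The 3 probe sets that list MXD4 with MIR4800 changed by -0.67 (210778_s_at, adjusted p = 0.0474, limma), -0.92 (212346_s_at, adjusted p = 0.242, limma) and -0.29 (212347_x_at, adjusted p = 0.491, limma), and the single call was lost in 16 of 21 settings.

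MLX had 5 tested probe sets, and 3 fell in the WT line. The brightest, 213708_s_at, read 11.12, 11.17 and 11.24 in WT tetracycline arrays, against 11.59, 11.51 and 11.61 in WT untreated arrays, with no overlap. Its change was -0.40 (adjusted p = 0.0295, limma). The others were 210752_s_at at -1.004 (adjusted p = 0.0234, limma) and 217910_x_at at -0.39 (adjusted p = 0.0421, limma). The call was lost in 6 of 21 settings for 213708_s_at and in 17 of 21 for 217910_x_at. For 210752_s_at it was lost in 6 of 20, since the stricter filter left this set out. The WT arrays alone were among the lost settings for all 3. The sets 217909_s_at and 1570347_at changed by -0.27 and 0.12 and missed the threshold.

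**Figure D2:**
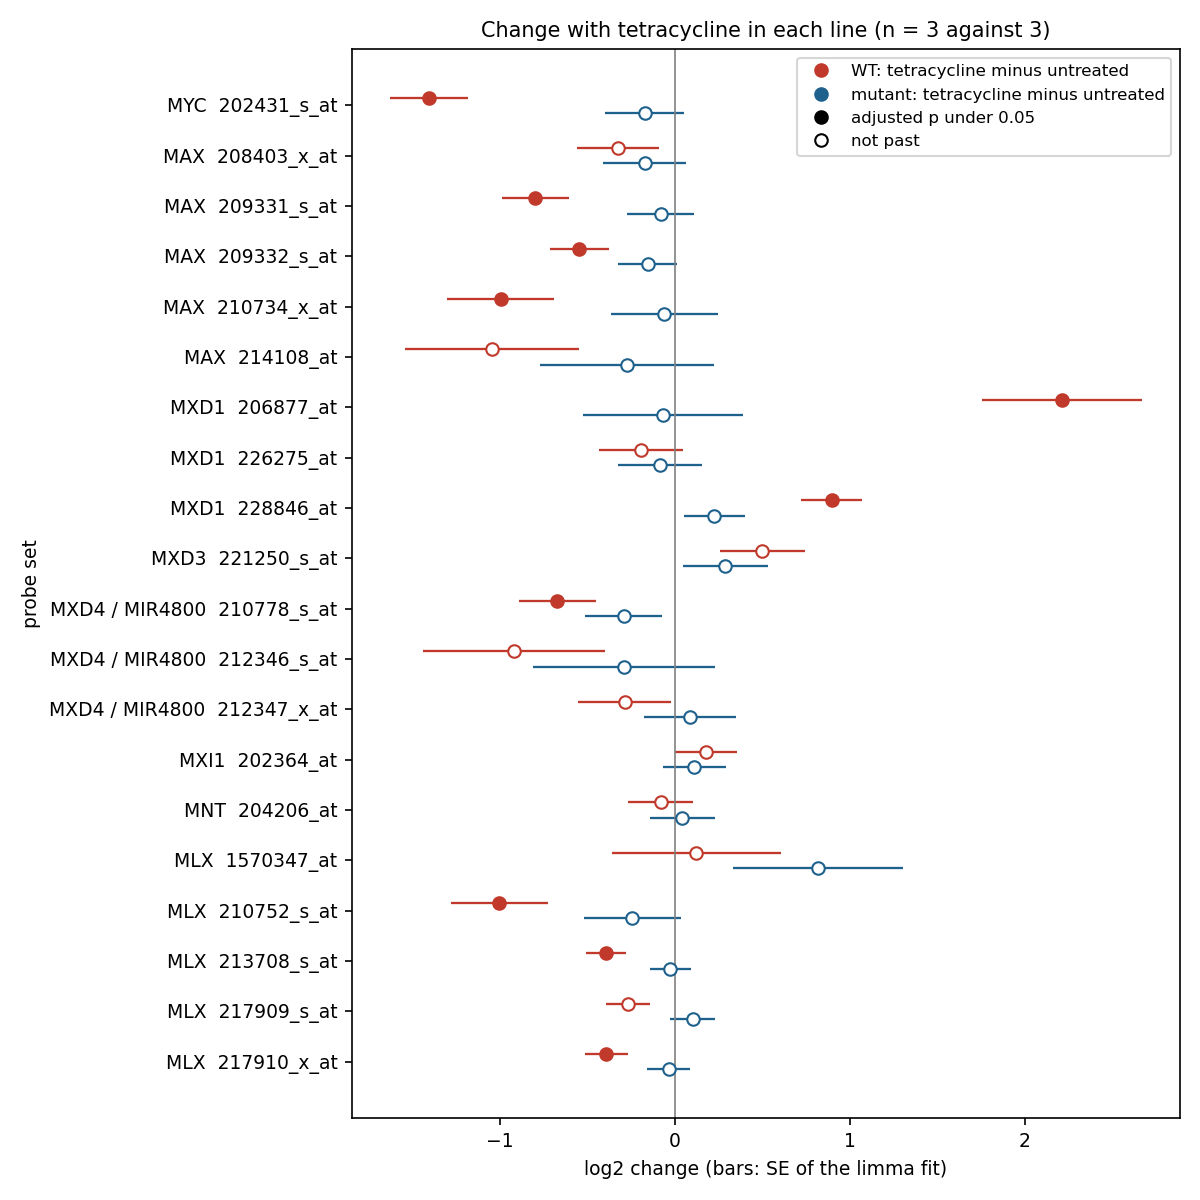
The horizontal axis is the log2 change with tetracycline (tetracycline minus untreated) and each row is a tested probe set, with bars for the SE of the limma fit. Filled points have an adjusted p under 0.05. All filled points belong to the WT line, where MYC lies at -1.41, and the mutant estimates of the 17 single-symbol sets are all open.

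In the mutant line, the study's control for the inducer, 0 of 17 member probe sets passed by limma, against 0.0% of all tested probe sets. At an unadjusted p under 0.05 there were 0 members and 620 probe sets in all. The difference between the 2 responses, WT minus mutant, was tested in the same fit. It was -1.23 ± 0.32 for MYC (adjusted p = 0.113, limma), 0.67 for MXD1 228846_at (adjusted p = 0.23, limma), 2.28 for MXD1 206877_at (adjusted p = 0.135, limma) and -0.72 for MAX 209331_s_at (adjusted p = 0.245, limma). The value for MXD1 206877_at rests on WT untreated signals under the brightness threshold. Of the 17 sets 0 passed, against 0.139% of all, and 6 of 17 had an unadjusted p under 0.05, as did 4271 of all tested sets. The MYC difference was -1.14 and passed without WT tetracycline replicate 1 (adjusted p = 0.04, limma), where 4 members and 9.14% of all sets were called. With limma array weights it was -1.02 (adjusted p = 0.0265, limma), with 4 members and 8.44% of all called.

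Whether MYC and MAX changed unequally was asked on each array as the log2 signal of MYC minus that of MAX (209332_s_at). Only its change between groups is read, since probe sets of different genes differ in brightness. It was -1.94, -0.76 and -1.09 in WT tetracycline arrays, against -0.71, 0.30 and -0.79 in WT untreated arrays. The groups overlapped, and the change of -0.86 had p = 0.2 in an exact permutation test, 2-sided, in which 3 against 3 cannot go below 0.1. In the mutant line the change was -0.02 (exact permutation p = 0.9).

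Set against its antagonists and MLX, MYC changed as follows in each line, given as values with no test. MYC minus MXD1 (228846_at) averaged 0.23 ± 0.36 in WT tetracycline arrays and 2.54 ± 0.83 in WT untreated arrays (SD, n = 3 each). This was a change of -2.30, against -0.40 in the mutant line. Its size depends on the probe set, since MXD1 226275_at, not used here, changed by -0.20 in the WT line. The change was -1.58 and -0.28 in WT and mutant lines for MYC minus MXI1, -1.32 and -0.21 for MYC minus MNT, -1.91 and -0.46 for MYC minus MXD3, and -1.01 and -0.15 for MYC minus MLX. These changes share the MYC signal and are not independent of each other.

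**Figure D3:**
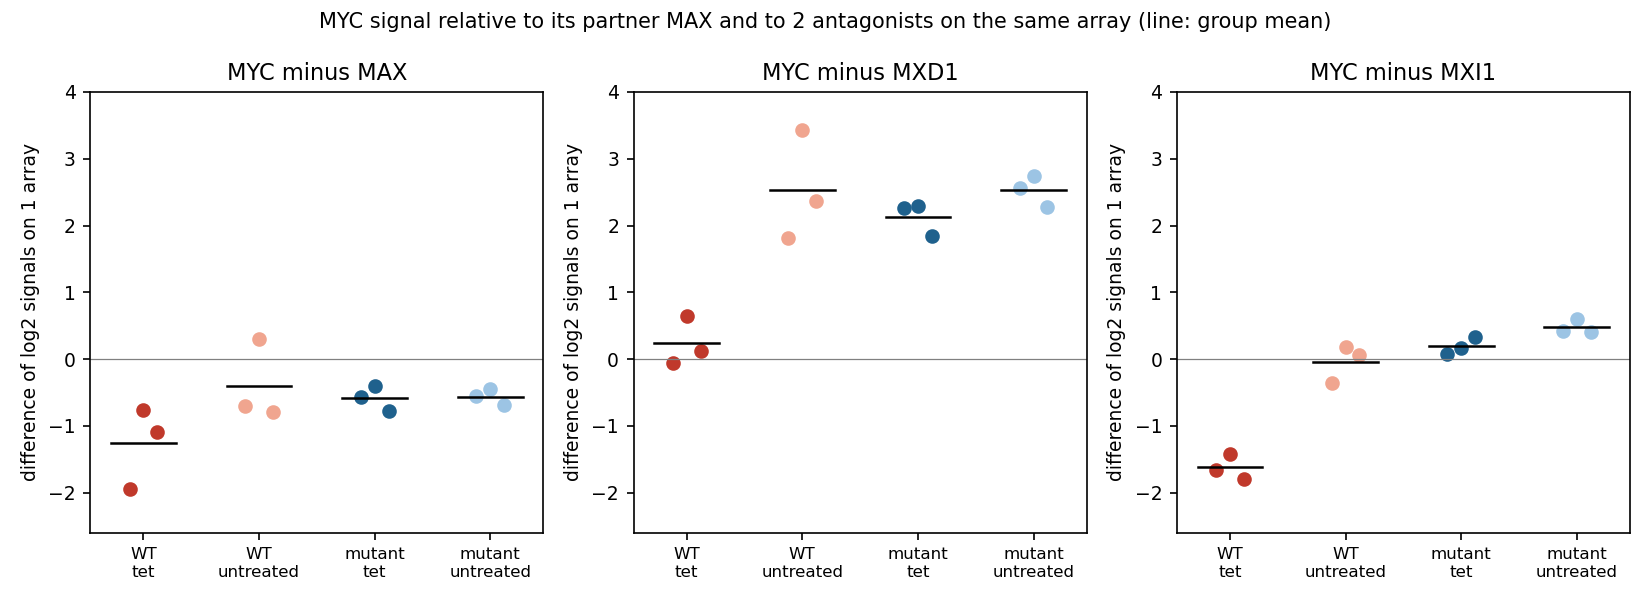
The vertical axis is the log2 signal of MYC minus that of MAX, MXD1 or MXI1 on the same array, and points are arrays with a line for the group mean. Each gene is given by its brightest probe set, 228846_at for MXD1. The WT tetracycline arrays overlap the WT untreated arrays for MAX, and lie below them for MXD1, with means of 0.23 and 2.54.

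Between the lines with tetracycline, MYC was 2.08-fold lower in WT than in mutant cells, a change of -1.06 ± 0.22 (adjusted p = 0.00375, limma), and the arrays did not overlap. In this comparison 6 of 17 member sets passed, against 27.6% of all. Of these 2 were higher and 4 lower in WT, against 10.2% and 17.3% of all. This comparison and the WT response share the WT tetracycline arrays. MAX was lower in WT on 209331_s_at, by -1.07 (adjusted p = 0.00137, limma), and on 210734_x_at, by -1.45 (adjusted p = 0.00368, limma), while 209332_s_at missed the threshold at -0.38 (adjusted p = 0.113, limma). MXD1 228846_at was 0.84 higher in WT (adjusted p = 0.00308, limma) and MLX 217909_s_at was lower, at -0.44 (adjusted p = 0.0196, limma). That MLX call was lost in 4 of 21 settings, and the other MLX sets missed the threshold. The brightest MLX set, 213708_s_at, was at 0.11 (adjusted p = 0.488, limma). The sets 210752_s_at, 1570347_at and 217910_x_at were at -0.73, -0.15 and -0.08, so the MLX sets differ in sign. MYC missed the threshold with replicates 1 and 2 alone, at -1.08 (adjusted p = 0.0561, limma). The lines differ in actin 3′ minus 5′ signal as given above, and its part in these differences was not tested.

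MXI1, which also pairs with MAX, was higher in the WT line whether or not tetracycline was given. It read 11.76, 12.02 and 11.96 in WT tetracycline arrays, against 11.29, 11.34 and 10.85 in mutant tetracycline arrays. It read 11.65, 12.13 and 11.43 in WT untreated arrays, against 11.11, 11.13 and 10.91 in mutant untreated arrays. No WT array reached down to a mutant array of the same treatment. The difference was 0.75 with tetracycline (adjusted p = 0.00713, limma) and 0.69 untreated (adjusted p = 0.0216, limma), and the untreated call was lost in 5 settings, 4 of which left out 1 array each (WT untreated replicate 2 or any 1 mutant untreated array).

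Without tetracycline MYC did not pass between lines, at 0.18 ± 0.22 (adjusted p = 0.662, limma), nor did any MAX probe set. Of 17 sets 3 passed, against 12.9% of all. They were MXI1, MLX 213708_s_at, which was 0.48 higher in WT (adjusted p = 0.014, limma), and MXD1 206877_at, which was lower in WT at -1.98 (adjusted p = 0.0122, limma). The other MLX sets missed the threshold, at 0.54, 0.02, -0.07 and 0.28 for 1570347_at, 210752_s_at, 217909_s_at and 217910_x_at. That MXD1 set was as bright in the mutant line with or without tetracycline as in WT tetracycline arrays to within 0.30 (adjusted p = 0.655 for WT minus mutant with tetracycline, limma), so the WT untreated arrays alone stood apart. Their mean of 4.94 was under the brightness threshold and the set passed the filter through its other groups, so this call is not read as support. The count was 1 when any 1 of the mutant untreated arrays was left out. The sets that list MXD4 with MIR4800 were lower in WT with tetracycline, at -0.94, -1.83 and -0.93 (adjusted p = 0.00651, 0.018 and 0.0181 for 210778_s_at, 212346_s_at and 212347_x_at, limma), and missed the threshold untreated. Their calls with tetracycline were lost in 1, 3 and 3 alternative settings. The set 212346_s_at read 7.54, 4.90 and 7.52 in WT tetracycline arrays, so replicate 2 stood apart. Its estimate ran from -2.67 to -0.95 over the alternatives.

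**Figure D4:**
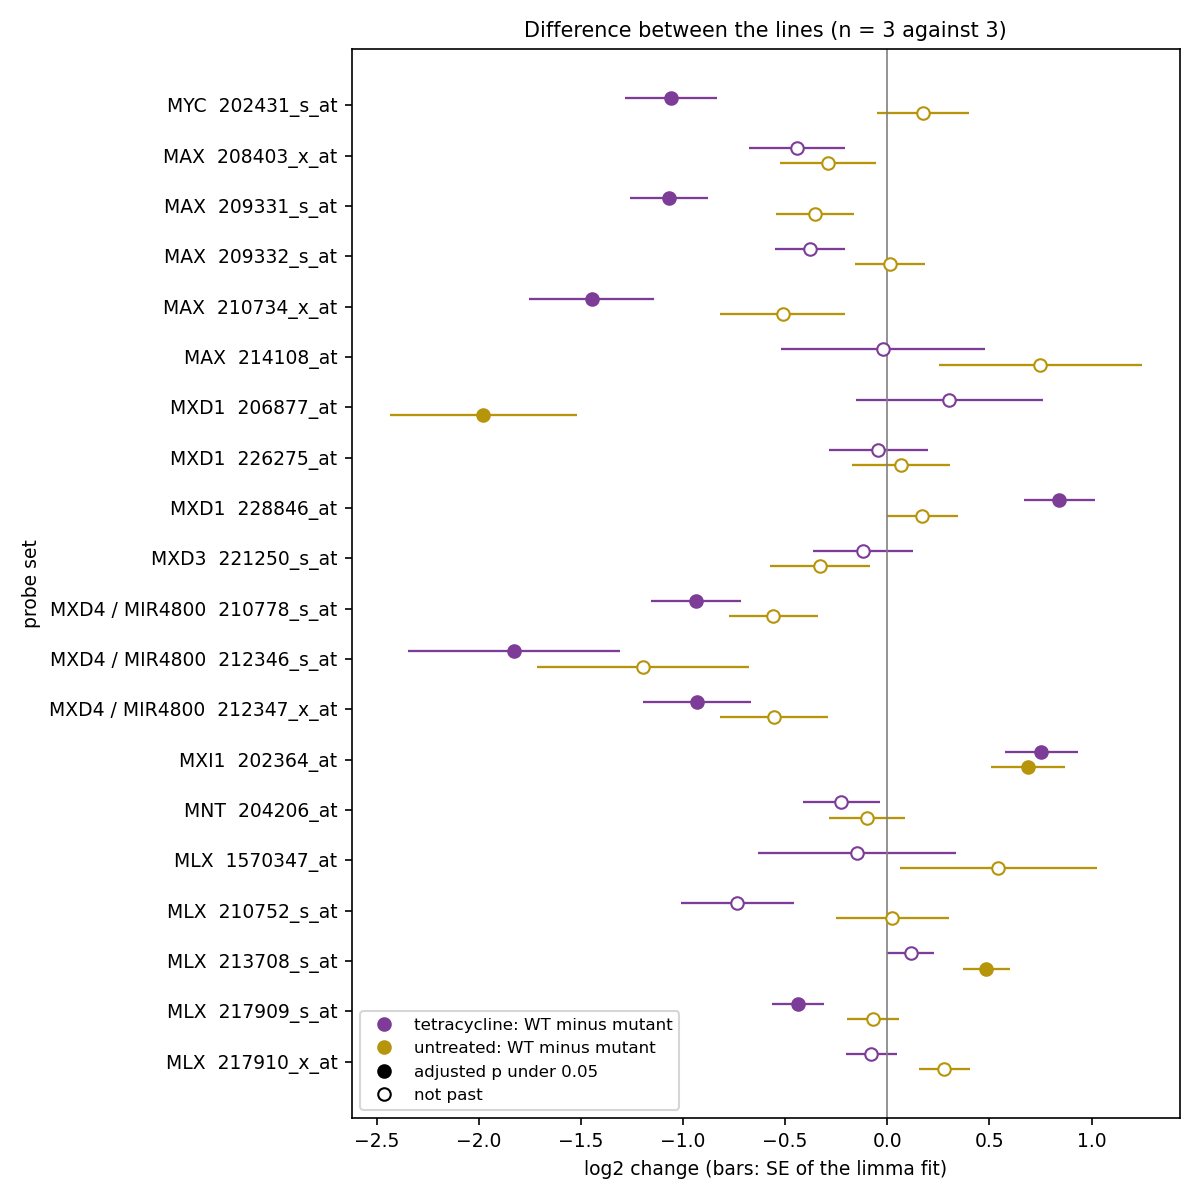
The horizontal axis is the log2 difference between lines, WT minus mutant, and each row is a tested probe set, with bars for the SE of the limma fit and filled points for an adjusted p under 0.05. MXI1 lies to the right of 0 with and without tetracycline, at 0.75 and 0.69, while MYC lies at -1.06 with tetracycline and 0.18 without.

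The genes whose signal followed MYC most closely over the 12 arrays, of 13065 other genes, were IRS4 (Pearson r = 0.959), MYOM2 (r = 0.956), KAZN (r = 0.947), COMTD1 (r = 0.938), DDHD2 (r = 0.934) and NTHL1 (r = 0.932). All 6 fell in the WT line, by -2.57 for MYOM2, a sarcomere protein, and by -1.56 for IRS4, an insulin receptor substrate abundant in HEK cells. They were picked for following MYC on these same arrays, so their falls are no separate result. The 12 arrays share the 4 groups, so r is a description. Over the 9 arrays without WT tetracycline it was 0.931 for IRS4, 0.916 for MYOM2 and 0.710 for NTHL1. Among the members, MXD1 228846_at ran opposite to MYC (r = -0.940, rank 13055 of 13065, and -0.698 over the 9 arrays). For the other members r was 0.609 over the 12 arrays and 0.185 over the 9 for MAX, 0.571 and 0.662 for MNT, 0.257 and 0.320 for MLX, and -0.217 and -0.088 for MXD3. For MXI1 the sign turned, with -0.273 over the 12 arrays and 0.725 over the 9.

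Most of a list of 44 genes that MYC is known to induce did not pass in the WT line. Of 35 tested, 6 fell and 1 rose, against 8.57% and 9.41% of all 13066 tested genes, and 28 did not pass. The median change was -0.25, against 0.03 over all genes, with 26 estimates negative and 9 positive. RIOX2, a ribosomal oxygenase, read 10.26, 9.90 and 9.56 in WT tetracycline arrays, against 11.29, 10.66 and 10.96 in WT untreated arrays. The groups did not overlap, and its change was -1.06 ± 0.19 (adjusted p = 0.00211, limma). POLR1B, the second largest subunit of RNA polymerase I, changed by -0.79 (adjusted p = 0.00968, limma) and HSPE1, the mitochondrial co-chaperonin, by -0.57 (adjusted p = 0.00663, limma).

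The other targets that fell were APEX1, a DNA repair endonuclease, at -0.72 (adjusted p = 0.0339, limma), LDHA, lactate dehydrogenase, at -0.42 (adjusted p = 0.0358, limma) and ODC1, ornithine decarboxylase of polyamine synthesis, at -0.32 (adjusted p = 0.0288, limma). RCC1, the exchange factor for RAN, rose by 0.68 (adjusted p = 0.0103, limma), opposite to the name of the list. With the WT arrays alone 1 target fell, RIOX2, and 0 rose. The number that fell was 2 without WT tetracycline replicate 2, 3 without WT tetracycline replicate 3 or WT untreated replicate 1 or 3, 12 without WT tetracycline replicate 1 and 14 without WT untreated replicate 2.

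CACGTG occurred in promoters of 16 of the 36 genes of this list with a RefSeq entry, 44.4%, against 8.77% of all 27305 genes with one. Among the 7 called genes, RIOX2 had no entry in the table used, and POLR1B had no CACGTG in its 2 windows. The windows of the others are shown because these are the called targets with the motif, with every E-box in capitals, 5′ to 3′ on the strand of the gene.

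APEX1, chr14:20455155-20455214, plus strand, first E-box starting 44 bases upstream: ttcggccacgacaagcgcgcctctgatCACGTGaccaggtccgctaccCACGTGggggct

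HSPE1, chr2:197500330-197500378, plus strand, E-box starting 22 bases upstream: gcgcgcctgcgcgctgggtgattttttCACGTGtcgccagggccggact

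LDHA, chr11:18394449-18394508, plus strand, E-box starting 87 bases upstream: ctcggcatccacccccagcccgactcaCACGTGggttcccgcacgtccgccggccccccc

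ODC1, chr2:10448013-10448068, minus strand, E-box starting 29 bases upstream: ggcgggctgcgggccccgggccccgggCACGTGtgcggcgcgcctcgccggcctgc

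RCC1, chr1:28518009-28518068, plus strand, E-box starting 190 bases upstream: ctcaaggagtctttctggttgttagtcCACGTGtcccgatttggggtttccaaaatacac

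These genes were chosen for the motif, so nothing is read from it about their direction. LDHA and APEX1 hold a further upstream CACGTG outside the stretches shown, 185 and 105 bases before the start, and ODC1 holds another 5 bases after its start.

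Of 18 genes in a list that MYC is known to repress, 14 were tested. In the WT line 4 rose and 1 fell, against 9.41% and 8.57% of all tested genes, and the median change was 0.25, against 0.03 over all genes. CDKN1A, the cyclin-dependent kinase inhibitor p21, read 12.23, 12.41 and 12.77 in WT tetracycline arrays, against 10.65, 11.31 and 11.004 in WT untreated arrays. The groups did not overlap, and the change was 1.48 ± 0.18 (2.78-fold, adjusted p = 0.000266, limma). GADD45A, a stress and growth arrest gene, rose by 1.49 (adjusted p = 0.000707, limma), BCL2, which blocks apoptosis, by 0.89 (adjusted p = 0.0282, limma) and CDKN2B, the inhibitor p15, by 0.62 (adjusted p = 0.0405, limma). CCND1, cyclin D1, fell by 0.90 (adjusted p = 0.00895, limma). The number that rose was 2 with the WT arrays alone, and 2 without WT untreated replicate 3, WT tetracycline replicate 2 or WT tetracycline replicate 3.

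**Figure D5:**
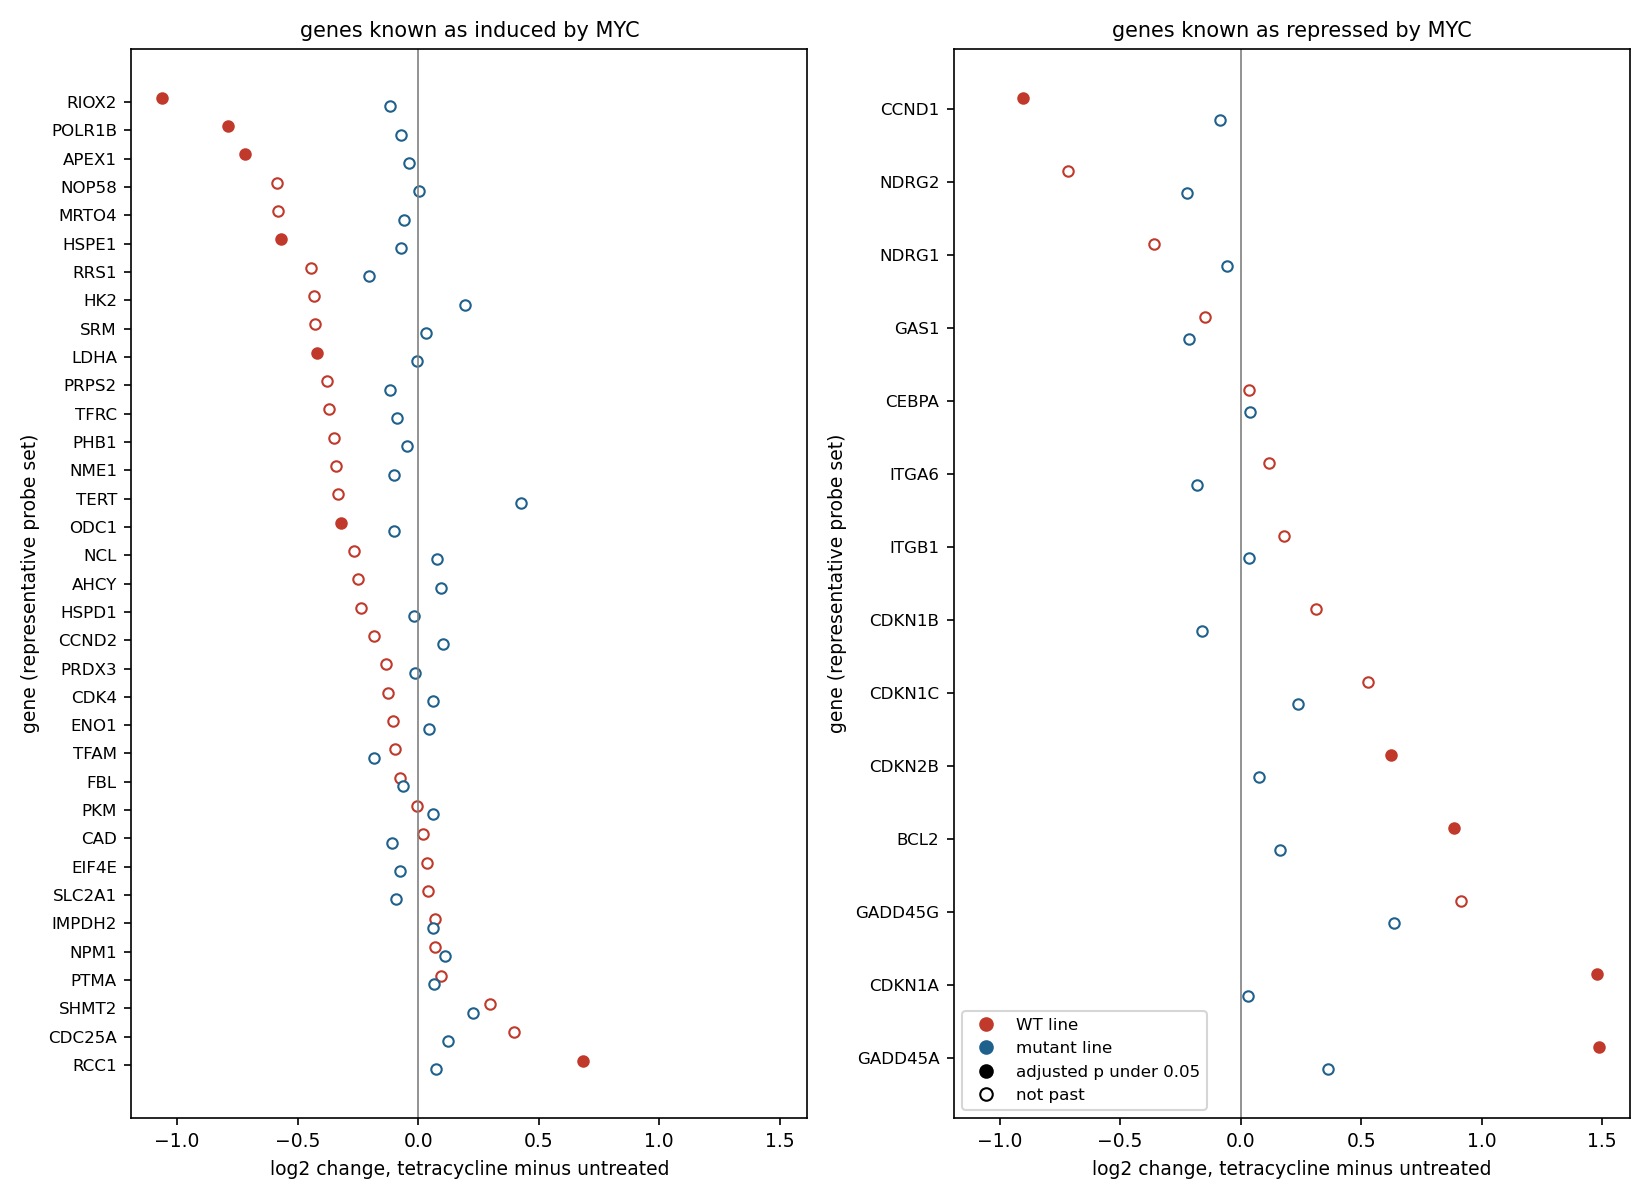
The horizontal axis is the log2 change with tetracycline and each row is a gene of the MYC-induced list (left) or the MYC-repressed list (right), with red points for the WT line, blue points for the mutant line and filled points for an adjusted p under 0.05. In the WT line RIOX2 lies at -1.06 and RCC1 at 0.68 on the left, and CDKN1A lies at 1.48 and CCND1 at -0.90 on the right.

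The counts of called cofactors in the WT line were near the shares over all genes, 9.41% risen and 8.57% fallen. Of 16 tested coactivator genes, 2 rose and 2 fell. RUVBL2 and RUVBL1, the helicases of chromatin remodelling complexes that bind MYC, changed by -0.89 (adjusted p = 0.00163, limma) and -0.52 (adjusted p = 0.00803, limma). CCNT1, the cyclin of the elongation kinase, rose by 0.52 (adjusted p = 0.0171, limma) and CREBBP, a histone acetyltransferase, by 0.64 (adjusted p = 0.0381, limma). With the WT arrays alone RUVBL2 remained the one coactivator that fell and 0 rose. Of 10 corepressor genes 1 rose, ZBTB17 (MIZ1), a partner through which MYC represses, at 0.65 (adjusted p = 0.0317, limma), and 1 fell, the SIN3 subunit SUDS3, at -0.58 (adjusted p = 0.0347, limma).

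Among 10 tested genes that act on MYC transcription or mRNA, 2 rose and 1 fell, against 9.41% and 8.57% of all genes. IGF2BP1, an RNA-binding protein known to stabilise MYC mRNA, read 10.55, 11.02 and 11.12 in WT tetracycline arrays, against 9.62, 8.79 and 9.41 in WT untreated arrays. It rose by 1.63 ± 0.21 (3.09-fold, adjusted p = 0.000342, limma) while MYC itself fell, and it passed with the WT arrays alone (adjusted p = 0.0159, limma). FUBP1, which binds a single-stranded element upstream of MYC, rose by 0.99 (adjusted p = 0.0273, limma), and HNRNPD (AUF1), which binds AU-rich mRNA, changed by -0.59 (adjusted p = 0.0221, limma). Of 18 genes of MYC protein turnover 1 fell, GSK3B, the kinase that marks MYC for degradation, at -0.75 (adjusted p = 0.0328, limma), on WT groups that overlapped, and 0 rose, which is under the same shares.

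MYCL, MGA, MLXIP, MLXIPL and MYCBP2, which surround the 9 members, and the MLX-dependent targets had no call by limma with tetracycline in the WT line. Of these 5 network genes, MLXIP came nearest, at -0.48 (adjusted p = 0.0729, limma), followed by MLXIPL at 1.07 (adjusted p = 0.284, limma). Among 5 tested MLX-dependent glucose-response genes, TXNIP, which restrains glucose uptake, changed by 1.29 ± 0.49 on overlapping arrays (adjusted p = 0.0873, limma). In the mutant line 0 genes of any of these lists passed by limma, with 0.0% of all genes called.

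Between the lines with tetracycline, 10 of the 35 MYC-induced genes were called, against 28.2% of all tested genes, and untreated 4 of 35 were, against 12.7%. ODC1 read 13.96, 13.98 and 13.82 in WT tetracycline arrays, against 13.17, 13.11 and 13.20 in mutant tetracycline arrays. It was higher in the WT line by 0.76 with tetracycline (adjusted p = 0.000147, limma) and by 0.98 untreated (adjusted p = 7.8e-05, limma), while MYC was lower in WT with tetracycline. NCL, the nucleolar protein nucleolin, was lower in WT with tetracycline at -0.48 (adjusted p = 0.00235, limma), as was CCND2, cyclin D2, at -0.62 (adjusted p = 0.0033, limma).

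Markers of other cell types were summed in each group. The summed linear signal of the 6 fibroblast and endothelial markers was 1403 to 1434 in WT tetracycline arrays, against 708 to 1090 in WT untreated arrays, and 831 to 1091 in mutant tetracycline arrays, against 849 to 940 in mutant untreated arrays. COL1A1, which mesenchymal cells make, rose by 0.88 in the WT line (adjusted p = 0.00748, limma). PECAM1, the list's other tested marker, changed by -0.03 (adjusted p = 0.978, limma), and COL3A1, DCN, VWF and CDH5 were too dim to test. The sum over the 5 blood markers was 400 to 448 in WT tetracycline arrays, against 397 to 474 in WT untreated arrays, which overlap, and 0 of its 2 tested markers passed (smallest adjusted p = 0.60, limma). The part of these markers in the changes above was not tested.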

How the data were processed

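Per the submitters' processing notes, the deposited values are MAS5 output, 1 linear intensity for each probe set and array. The MAS5 version and settings are not given in the sources used here. Array means were near 500 once the top and bottom 2% were trimmed. No column was left out.

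Signals were floored at 1 and log2 was taken. The 62 control probe sets were left out, and the 29553 probe sets with at least 1 group mean over the median of all values, 6.39, were tested. One model with 4 group means was fitted to all 12 arrays with limma 3.58.1 in R 4.3.3 (eBayes with a trend). Contrasts were the tetracycline response of each line, their difference and the lines compared at each treatment. A gene's representative was its probe set with the highest mean over the 12 arrays. Replicate numbers were not used as pairs, since same-numbered deviations did not all correlate over 0.1 (0.0418 to 0.253 for the WT response). The fit was tested on simulated data. Symbols came from the platform annotation, updated through RefSeq gene IDs, and promoters from RefSeq (GRCh38.p14). Figures used matplotlib 3.10.9 in Python 3.11.15.

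The members and lists were chosen with earlier results of these data known. Every member probe set was described, and up to 8 called genes per list and comparison, smallest p first, or the 2 nearest where none passed, plus TRPM7 and the 6 genes most like MYC. The alternatives were no filter, a filter at the 75th percentile, adding 16 to signals before log2, eBayes without trend, quantile normalization, the compared arrays alone, a replicate block, array weights, replicates 1 and 2 alone and each array left out.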

Additional observations from a re-analysis of the deposited data

Results flagged for a closer look

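The test of the difference between responses was read for members, list genes and TRPM7, and not for the genes most like MYC. Of those read, CDKN1A, from the list of genes that MYC represses, was the only gene called. The WT response minus the mutant response was 1.45 ± 0.26 (SE, adjusted p = 0.0485, limma), with WT arrays of 12.23, 12.41 and 12.77 with tetracycline and 10.65, 11.31 and 11.004 untreated, and mutant arrays of 11.03, 11.30 and 11.43 with tetracycline and 11.11, 11.20 and 11.37 untreated. In the WT line 3 of 3 arrays rose above all untreated ones, and in the mutant line the groups overlapped. The adjusted p (limma) lay between 0.00152 and 0.832 over the alternatives and the estimate between 1.28 and 1.61. The call was lost when any 1 mutant array, WT untreated replicate 1 or 3, or WT tetracycline replicate 2 or 3 was left out.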

How the results depend on the processing

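The number of member probe sets called in the WT response, 9, was 5 with eBayes without trend, 1 with the WT arrays alone, 0 with replicates 1 and 2 alone, and 3 to 9 when 1 array was left out. For the difference of responses, 0, it was 1 with a replicate block, 4 with array weights and 0 to 4 when 1 array was left out. For untreated lines, 3, it was 1 with replicates 1 and 2 alone and 1 to 4 when 1 array was left out. For lines with tetracycline, 6, it was 3 with replicates 1 and 2 alone and 5 to 8 when 1 array was left out. In the mutant line it was 0 throughout. The MYC change in the WT response was -1.45 with replicates 1 and 2 alone (adjusted p = 0.0509, limma) and -1.61 to -1.10 when 1 array was left out, past the threshold in 12 of 12. The MYC difference was -1.23 with the replicate block (adjusted p = 0.048, limma), -1.02 with array weights (adjusted p = 0.0265, limma) and -1.44 to -0.93 when 1 array was left out. The MYC difference between lines with tetracycline was -1.08 with replicates 1 and 2 alone (adjusted p = 0.0561, limma) and -1.21 to -0.96 when 1 array was left out. MYC minus MAX changed by -1.11 to -0.51 in the WT line when 1 array was left out. The replicate block moved no other member count by over 1.5 times. Over the member probe sets other than MYC, and the list genes called in a comparison, 3055 values under alternatives kept their side of the threshold, 482 lost it and 17 gained it, and no call changed sign. Fits of fewer arrays have fewer degrees of freedom, and the cause of the changes under the alternatives was not tested. Signals near background limit MYCN and MXD1 206877_at.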

Other observations

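With tetracycline in both lines, 8 of 18 tested genes of MYC protein turnover were called, 5 higher and 3 lower in WT than in mutant cells, against 28.2% of all tested genes called. HUWE1, a ubiquitin ligase, was 1.02 higher (adjusted p = 0.0323, limma), FBXW7, the ligase subunit that reads phosphorylated MYC, 0.58 higher (adjusted p = 0.0298, limma) and GSK3B lower, at -1.09 (adjusted p = 0.0031, limma). The number higher was 2 with quantile normalization, and 2 without WT tetracycline replicate 2 or 3 or mutant tetracycline replicate 2 or 3.

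SMARCB1, a chromatin remodelling subunit that binds MYC, was lower in WT at -1.18 with tetracycline (adjusted p = 0.000447, limma) and -0.77 untreated (adjusted p = 0.0113, limma), with no overlap between lines in either. SAP18, a subunit of SIN3 complexes, was higher in WT by 0.55 with tetracycline (adjusted p = 0.000977, limma) and 0.32 untreated (adjusted p = 0.0365, limma). CEBPA, a differentiation factor of the MYC-repressed list, was lower in WT at -1.41 both with tetracycline (adjusted p = 0.000213, limma) and untreated (adjusted p = 0.000583, limma).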
